A study of Mus musculus with 6 samples.

Results

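The 10 genes described here write and erase DNA methylation. They are the methyltransferases Dnmt1, Dnmt3a and Dnmt3b, the cofactors Dnmt3l, Uhrf1 and Uhrf2, the oxidases Tet1, Tet2 and Tet3, and the glycosylase Tdg. They were chosen by function, as the table rows whose Ensembl identifier carries one of these symbols, but with earlier results of these data known. All 10 were found, each in 1 row of the 51912 gene identifiers, and all 10 were among the 14889 genes with enough counts to be tested. R1 cells, a mouse embryonic stem cell line, had been kept naive in 2iLIF (LIF with inhibitors of MEK and GSK3) and were then given FGF2 at 100 ng/ml in serum-free N2B27 medium. Messenger RNA was sequenced after 24 h (3 libraries) and after 48 h (3 libraries), and every library had the same cells, medium and FGF2. Whether replicates came from separate cultures is not in the labels, so p-values measure the spread between these libraries, which may be technical. Libraries without FGF2 or from the naive state were not analysed here, so the effect of FGF2 cannot be told apart from that of the medium or of time.

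Methylation of cytosine at CpG pairs is laid down by Dnmt3a and Dnmt3b, the de novo enzymes, which Dnmt3l binds and stimulates without being an enzyme itself. After replication, Uhrf1 recognises the hemimethylated DNA and brings Dnmt1, which copies the mark to the new strand. The Tet enzymes oxidise methylcytosine, and Tdg cuts out the most oxidised forms so that base excision repair can restore an unmodified cytosine. Naive stem cells held in 2iLIF are known for a genome with little methylation, and the genome becomes methylated as cells leave that state.

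The libraries held between 19574969 and 23133148 estimated counts. The 10 genes had between 476 counts (Tet3) and 30799 counts (Dnmt3b) in a library. Counting error therefore weighed most on Tet3, whose CV was 6.03% at 24 h and 7.47% at 48 h. The 6 pairs of replicates differed by more than sampling noise (chi-square per degree of freedom between 1.8 and 2.24), and each library was counted as a replicate. All 8 pluripotent cell markers were expressed at both times, with a summed level of 4455 to 4561 CPM at 24 h and 3399 to 3500 CPM at 48 h. CPM is the count scaled to the library total after TMM scaling. That sum covers markers that moved apart, as 5 of the 8 fell and 3 rose. Nanog fell from a mean of 694.7 to 174.4 CPM and Esrrb from 568.8 to 204.8 CPM, while Lin28a rose from 192.0 to 562.8 CPM. The 23 markers of 4 other cell types summed to far less. Fibroblast markers took 2.54 to 3.35 CPM at 24 h and 2.53 to 3.83 CPM at 48 h, with Postn and Lum at 0 in every library and Dcn at 0 counts in each 24 h library and at 23 to 32 counts at 48 h. Primitive endoderm markers took 9.31 to 11.1 and 5.58 to 6.32 CPM, trophoblast markers 6.64 to 7.08 and 1.75 to 1.80 CPM, and neural markers 127.1 to 136.6 and 144.0 to 156.1 CPM. The trophoblast sum was almost all Tfap2c (means of 6.60 and 1.55 CPM), with the other 4 markers under 10 counts in every library. Gata4 alone took 5.84 CPM of the primitive endoderm sum at 24 h and 2.25 CPM at 48 h. The neural sum covers markers that moved apart: Sox1 rose from 14.7 ± 0.28 to 36.6 ± 0.79 CPM (SD, n = 3) and Pax6 from 11.6 ± 0.94 to 33.9 ± 1.34 CPM, Tubb3 fell from 78.2 ± 5.64 to 54.3 ± 3.34 CPM, and Nes fell by 0.19 on the log2 scale. Their part in the results below was not tested. In bulk RNA, fewer cells of a type and less RNA per cell cannot be told apart.

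The start regions of 3 genes that rose together (Dnmt3b, Dnmt3a and Dnmt3l) and of the gene that fell (Tet2) are shown first, because CpG pairs are the substrate of these enzymes and the starts differ widely in them. The sequences are from RefSeq (GRCm38.p6), which matched all 10 genes with 17 start sites. Each run is the 250 bases before a start site, written 5′ to 3′ on the gene's strand, with CpG pairs in capitals. The Dnmt3b run is chr2:153649199-153649448 (plus strand) and holds 21 CpG pairs. The Dnmt3a run is chr12:3891494-3891743 (plus strand), inside the gene, and holds 15. The Dnmt3l run is chr10:78049592-78049841 (plus strand), also inside the gene, and holds 4. The Tet2 run is chr3:133544391-133544640 (minus strand) and holds 51.
Dnmt3b: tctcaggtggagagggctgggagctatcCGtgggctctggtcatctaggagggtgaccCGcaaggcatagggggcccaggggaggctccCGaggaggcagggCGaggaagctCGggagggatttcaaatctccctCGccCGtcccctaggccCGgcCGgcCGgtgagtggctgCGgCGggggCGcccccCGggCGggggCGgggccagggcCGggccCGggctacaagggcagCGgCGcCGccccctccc
Dnmt3a: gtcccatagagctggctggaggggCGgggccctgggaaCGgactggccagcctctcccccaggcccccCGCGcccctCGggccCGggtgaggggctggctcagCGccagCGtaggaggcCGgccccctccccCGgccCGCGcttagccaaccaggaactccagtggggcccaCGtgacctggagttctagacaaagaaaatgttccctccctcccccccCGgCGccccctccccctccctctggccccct
Dnmt3l: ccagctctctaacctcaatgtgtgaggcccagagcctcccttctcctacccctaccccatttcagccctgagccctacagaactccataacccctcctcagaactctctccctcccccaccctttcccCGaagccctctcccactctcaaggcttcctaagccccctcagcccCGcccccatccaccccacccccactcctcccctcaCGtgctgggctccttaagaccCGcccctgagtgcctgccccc
Tet2: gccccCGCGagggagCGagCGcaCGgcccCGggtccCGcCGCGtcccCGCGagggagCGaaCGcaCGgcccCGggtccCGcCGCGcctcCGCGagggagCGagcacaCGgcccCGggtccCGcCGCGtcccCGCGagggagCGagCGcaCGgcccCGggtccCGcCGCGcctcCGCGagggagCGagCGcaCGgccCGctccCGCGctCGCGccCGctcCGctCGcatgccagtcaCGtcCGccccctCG

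Across windows of 300 bases (these 250 and the next 50), 32841 promoters of the RefSeq table had a median of 7.0 CpG pairs. The Tet2 window had 57 pairs, more than 99.8% of all promoters, and the Dnmt3b window had 30, more than 88.3% of them. The 3 windows of Dnmt3l had 6, 4 and 3 pairs, all below that median, so the genes that rose together do not share a CpG-rich start. The 2 overlapping windows at the upstream end of Dnmt3a had 46 and 47 pairs, against 18 at the internal start shown above. Dnmt3a is known to have a short form made from an internal start in stem cells, but counts per gene do not show which start was used. The windows were searched on both strands for 7 motifs: the octamer ATGCAAAT, the SOX element CATTGT, the OTX element TAATCC, the ETS element CCGGAAG, the E-box CACGTG, and for E2F both TTTCCCGC and also TTTGGCGC. A match to any of them was found in 4 of the 17 windows. Each single motif was in between 0.51% (TTTGGCGC) and 12.57% (CATTGT) of all promoters. The share of promoters with any of the 7 was not computed, so that count has no background. The E-box CACGTG, a site for MYC and related factors, was in the shown windows of Dnmt3a and Dnmt3l and in that of Tdg, and 7.15% of all promoters hold it. The windows of Dnmt3a and Dnmt3l that are not shown held none of the 7 motifs. The Tdg window also held TAATCC, present in 7.06% of promoters, and 1 Dnmt1 window held TTTGGCGC, present in 0.51%.

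The quasi-likelihood test of edgeR called all 10 genes as different between the times (adjusted p below 0.05), 9 of them higher at 48 h and 1, Tet2, lower. The same test called 62.8% of all tested genes, 30.9% higher and 31.9% lower, so being called says little about any of them, and the sizes carry the description. The 3 values at 24 h and the 3 at 48 h did not overlap for any of the 10, as was the case for 66.9% of all tested genes. The median log2 fold change (48 h over 24 h) of the 10 genes was 0.52, against -0.01 for all tested genes, and the median size regardless of direction was 0.61 against 0.26. Only Dnmt3b, Dnmt3a and Dnmt3l rose at least 2-fold, a size and direction called for 4.59% of tested genes. Dnmt1, Uhrf1 and Tet3 changed least, with log2 fold changes of 0.10, 0.07 and 0.21.

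**Figure D1:**
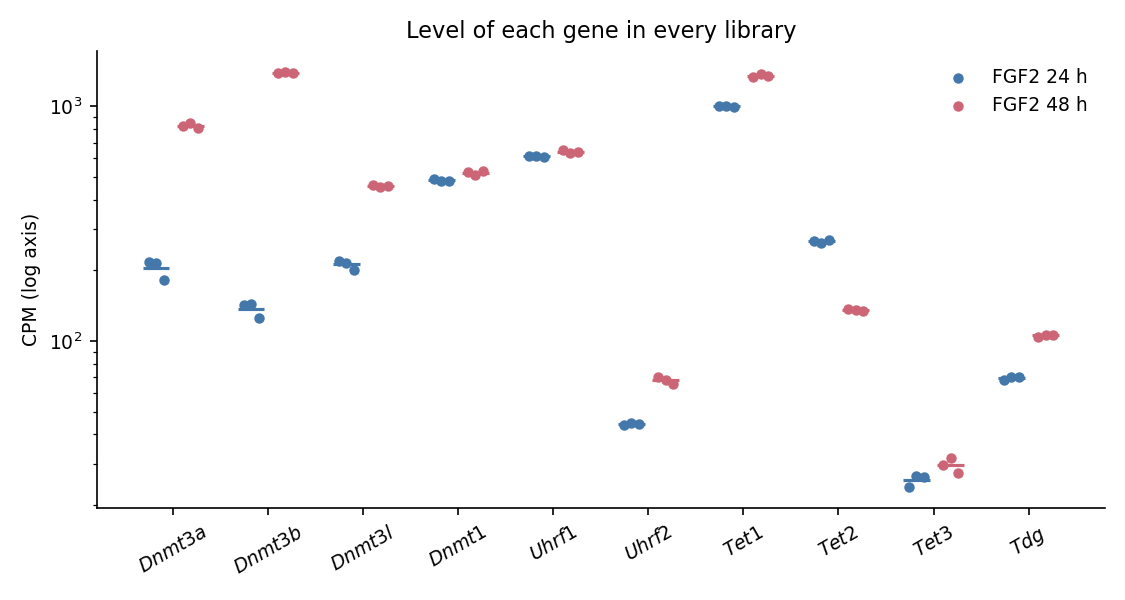
Level of the 10 genes in each library in CPM (log axis), with 3 points per time and a line at the mean (blue, 24 h; red, 48 h). Dnmt3b moves from 137 to 1390 CPM and Tet2 from 266.0 to 135.9 CPM, while Dnmt1 moves from 485.2 to 521.2 CPM and Uhrf1 from 613.4 to 641.6 CPM.

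The de novo methyltransferases rose most. Dnmt3b (ENSMUSG00000027478, chr2:153649450-153687730 in GRCm38) stood at 142.1, 143.4 and 125.5 CPM in the 24 h libraries and at 1382, 1408 and 1382 CPM in the 48 h libraries. Every 48 h value was above every 24 h value by a wide margin, and the 48 h libraries lay closer together (CV 1.07%) than the 24 h libraries (CV 7.29%). The rise was 10.2-fold, or 3.35 ± 0.03 (standard error) as log2 fold change (adjusted p = 1.35e-19), the rank 49 from the highest of 14889 genes. Its counts were fractional in 3 of 6 libraries, as RSEM, the counting program, divides reads between similar sequences.

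Dnmt3a (ENSMUSG00000020661, chr12:3806007-3914443) stood at 216.5, 214.8 and 182.9 CPM at 24 h and at 828.7, 848.1 and 805.9 CPM at 48 h. It rose 4.05-fold, which is 2.02 ± 0.04 in log2 (with its standard error; adjusted p = 3.91e-16). The rises of both enzymes differed in size. Within each library the ratio of Dnmt3b to Dnmt3a, per kb of transcript, was 1.502 ± 0.034 (SD, n = 3) at 24 h and 3.77 ± 0.067 at 48 h. That ratio rose 2.51-fold with no overlap, and an exact two-sided permutation test gave p = 0.1, the smallest that 3 against 3 libraries allow (0.117 after Benjamini-Hochberg adjustment over the 7 ratios computed). The change of this ratio needs neither a gene length nor a scaling between libraries. The level of the ratio does depend on the gene lengths. Without division by length, Dnmt3a was above Dnmt3b at 24 h (means of 204.7 and 137.0 CPM).

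Dnmt3l (ENSMUSG00000000730, chr10:78041947-78063622), the cofactor without catalytic activity, stood at 220.4, 215.9 and 201.3 CPM at 24 h and at 462.1, 452.5 and 457.0 CPM at 48 h. All 48 h libraries were above all 24 h libraries, and the rise of 2.15-fold was smaller than that of either enzyme (1.11 ± 0.03 in log2, with its standard error; adjusted p = 2.16e-15). Per kb, the summed enzymes Dnmt3a and Dnmt3b were at 0.453 ± 0.017 (SD, n = 3) of Dnmt3l at 24 h and at 1.62 ± 0.036 of it at 48 h, a 3.59-fold rise of the ratio without overlap (exact permutation p = 0.1). Per kb, the transcript of the cofactor thus exceeded that of its summed partners at 24 h and was below it at 48 h. With the union of exons as gene length these ratios were 0.550 and 2.11. The order at 24 h depends on division by length. Without it, the 24 h means were 212.5 CPM for Dnmt3l, 204.7 CPM for Dnmt3a and 137.0 CPM for Dnmt3b, so the summed enzymes were above the cofactor. Dnmt3l shares 67 bases of exon with Aire on the opposite strand. Aire itself was counted at 451 to 818 per library, with a mean of 23.35 CPM at 24 h and 35.3 CPM at 48 h, so it rose as Dnmt3l did. Whether the counting used strand is not given in the sources used here, and the part of Aire in the Dnmt3l values was not tested.

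Replicate 3 of the 24 h group was the lowest of its group for Dnmt3a, Dnmt3b and Dnmt3l. Its Dnmt3a level was 182.9 CPM against 214.8 and 216.5 CPM in the other two libraries, and its Dnmt3b level 125.5 against 142.1 and 143.4 CPM. In the same library Nanog, a naive marker, was at 723.0 CPM against 677.7 and 683.4 CPM. The part of this in the spread was not tested. Without this library the log2 fold change of Dnmt3a was 1.94 and that of Dnmt3b 3.28, so the calls did not rest on it.

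The maintenance genes changed least. Dnmt1 (ENSMUSG00000004099, chr9:20907209-20959888) was at 492.8, 480.4 and 482.5 CPM at 24 h and at 524.2, 510.0 and 529.3 CPM at 48 h. The 48 h libraries were all higher, by 7.42% in the fit (0.10 ± 0.02 in log2, with its standard error; adjusted p = 0.000156). Uhrf1 (ENSMUSG00000001228, chr17:56303321-56323486), which recruits Dnmt1, was at 613.9, 616.2 and 610.0 CPM at 24 h and at 653.5, 631.9 and 639.5 CPM at 48 h. Its log2 fold change was 0.07 ± 0.02 (adjusted p = 0.00334), with fractional counts in all 6 libraries. Neither of these calls held when library size was the only scaling, which gave 0.04 for Dnmt1 (adjusted p = 0.0536) and 0.00 for Uhrf1 (adjusted p = 0.832). Over the 15 alternative fits the adjusted p of Dnmt1 reached at most that 0.0536. The TMM scaling assumes that most genes do not change, and all tested genes had a median of -0.07 without it and of -0.01 with it.

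The ratio of Uhrf1 to Dnmt1 within a library is free of that scaling. Per kb it was 2.07 ± 0.030 (SD, n = 3) at 24 h and 2.02 ± 0.033 at 48 h. The values overlapped narrowly, with the lowest at 24 h at 2.039 and the highest at 48 h at 2.041. The exact two-sided permutation test gave p = 0.2. As 0.1 is the smallest p that 3 against 3 libraries allow, this test cannot decide whether the pair changed relative to each other. The summed de novo enzymes stood at 0.639 ± 0.050 of Dnmt1 per kb at 24 h and at 4.59 ± 0.15 of it at 48 h, a 7.19-fold rise of the ratio without overlap (exact permutation p = 0.1).

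Uhrf2 (ENSMUSG00000024817, chr19:30030513-30093722), a relative of Uhrf1 that does not replace it in maintenance, was much lower in level and rose more. It was at 44.1, 45.0 and 44.3 CPM at 24 h and at 70.1, 68.3 and 65.9 CPM at 48 h. The groups were clearly apart, with a rise of 1.53-fold (0.61 ± 0.04 in log2, with its standard error; adjusted p = 3.02e-10).

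**Figure D2:**
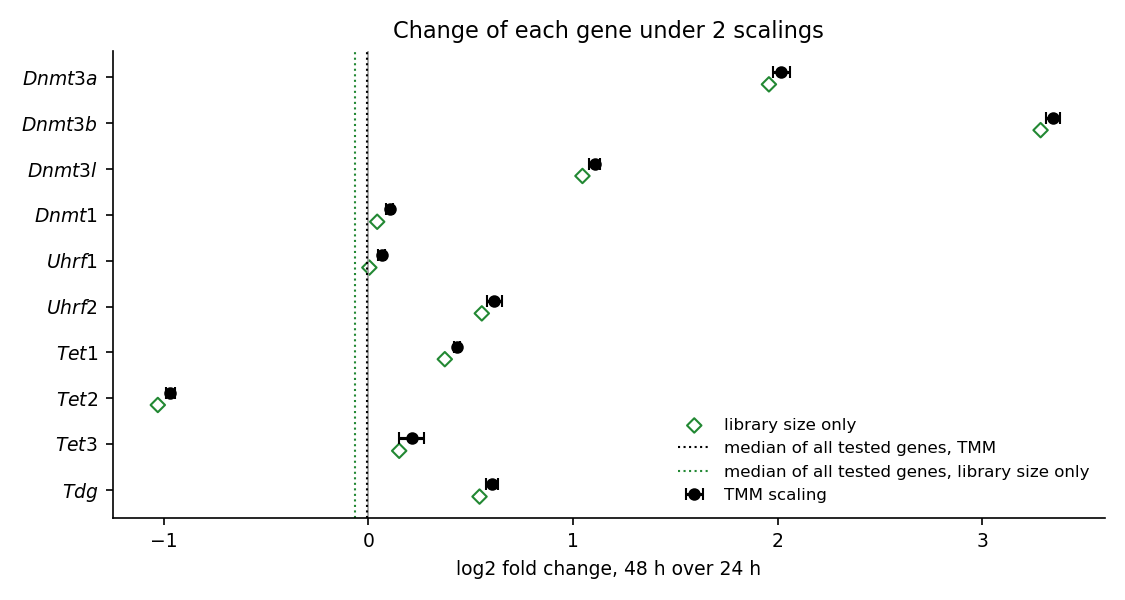
Log2 fold change (48 h over 24 h) of each gene with TMM scaling (black points, bars are standard errors) and with library size as the only scaling (green diamonds); dotted lines mark the median of all tested genes under each scaling. Dnmt3b is at 3.35 and Tet2 at -0.97 with TMM, and Dnmt1 and Uhrf1 sit beside 0 under both scalings, at 0.04 and 0.00 with library size only.

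The Tet oxidases moved in opposite directions. Tet1 (ENSMUSG00000047146, chr10:62804570-62908996), the main Tet enzyme of stem cells, was at 1001, 1003 and 996.1 CPM at 24 h and at 1329, 1380 and 1343 CPM at 48 h. It was higher at 48 h in every library, by 1.35-fold (0.43 ± 0.02 in log2, with its standard error; adjusted p = 5.39e-13). Tet2 (ENSMUSG00000040943, chr3:133463679-133545139), which lacks the DNA-binding CXXC domain that Tet1 carries, was at 267.1, 262.4 and 268.4 CPM at 24 h and at 137.0, 136.1 and 134.5 CPM at 48 h. It fell in every library to 0.511 of its 24 h level (log2 fold change -0.97 ± 0.02, adjusted p = 1.12e-15), and only 7.01% of tested genes had a lower fold change. With library size only, its log2 fold change was -1.03. Its start region, shown above, is the one with most CpG pairs among the 17 windows.

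Tet3 (ENSMUSG00000034832, chr6:83362373-83459084), known best from the oocyte and from neural cells, was the lowest of the 10 genes. It was at 23.8, 26.7 and 26.3 CPM at 24 h and at 29.7, 31.9 and 27.4 CPM at 48 h. The groups did not overlap but nearly met, and the change in log2 was 0.21 ± 0.06 (with its standard error; adjusted p = 0.00706). Its adjusted p was as high as 0.0496 without replicate 2 of 48 h, where the log2 fold change was 0.16.

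Per kb, the ratio of Tet1 to Tet2 was 2.40 ± 0.036 (SD, n = 3) at 24 h and 6.35 ± 0.14 at 48 h, a 2.64-fold rise without overlap (exact permutation p = 0.1). Tet1 made up 69.0% ± 0.29 of the Tet transcripts per kb at 24 h and 84.3% ± 0.28 at 48 h, while Tet2 went from 28.7% ± 0.32 to 13.3% ± 0.26. Tet3 held 2.33% ± 0.14 and 2.44% ± 0.15, values that differ by less than their spread. The sum over the family was 100.9 ± 0.086 CPM per kb at 24 h and 111.5 ± 1.98 at 48 h, so the summed level changed far less than its makeup. The ratio of Tet3 to Tet1 fell by 0.22 on the log2 scale, from 0.0337 ± 0.0021 to 0.0289 ± 0.0018, without overlap (exact permutation p = 0.1). The shares and the levels of the ratios depend on the length. With the union of exons as gene length, Tet1 held 78.9% at 24 h and 89.9% at 48 h, Tet2 19.2% and 8.29%, and Tet3 1.87% and 1.83%. The ratio of Tet1 to Tet2 was then 4.10 and 10.85.

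Tdg (ENSMUSG00000034674, chr10:82629828-82650799), the glycosylase that acts after the Tet enzymes, was at 68.3, 70.0 and 70.2 CPM at 24 h and at 104.4, 106.3 and 106.2 CPM at 48 h. The libraries of each time lay close together, and the rise was 1.52-fold (0.60 ± 0.03 in log2, with its standard error; adjusted p = 1.81e-11). Its counts were fractional in all 6 libraries. It shares 367 bases of exon with Glt8d2 on the opposite strand, which had between 1 and 4 counts in a library.

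**Figure D3:**
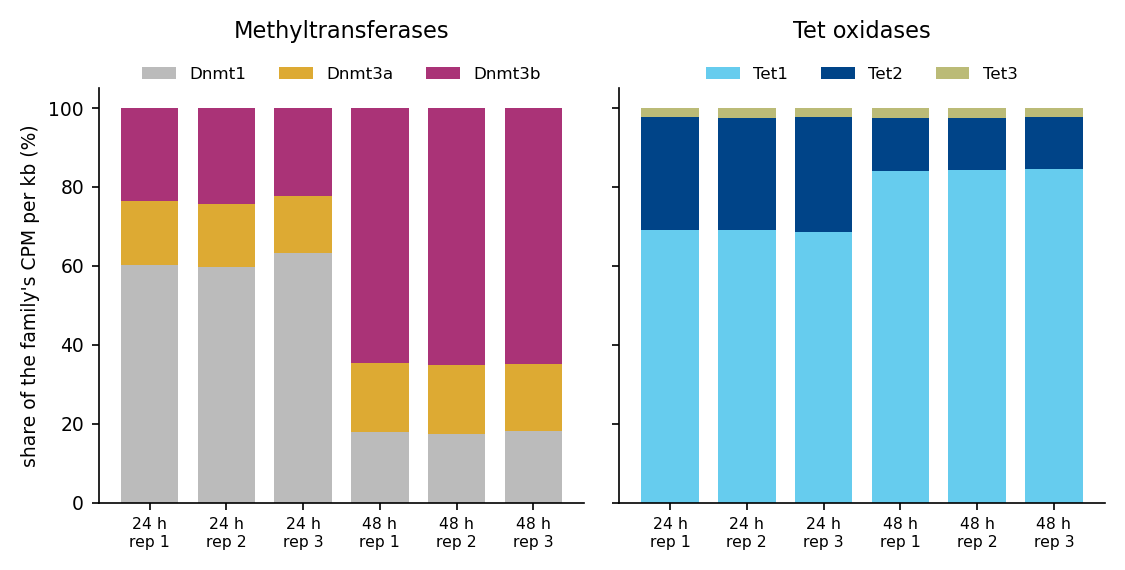
Share of each gene in its family's summed level per kb of transcript (percent), in each of the 6 libraries, for the 3 methyltransferases (left) and the 3 Tet oxidases (right). Dnmt3b takes 22.3 to 24.2% of the methyltransferase level in the 24 h libraries and 64.7 to 65.1% in the 48 h libraries, and Tet2 goes from 28.4 to 29.0% of the Tet level to 13.0 to 13.6%.

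Levels were then compared between genes, as CPM per kb of the longest coding transcript in GENCODE M21. At 24 h the order was Uhrf1 (171.1), Dnmt3l (116.6), Dnmt1 (82.7), Tet1 (69.6), Dnmt3b (31.7), Tet2 (29.0), Dnmt3a (21.1), Tdg (19.9), Uhrf2 (12.6) and Tet3 (2.35). The ranges of Dnmt3b and Tet2 overlapped, as did those of Dnmt3a and Tdg. At 48 h the order was Dnmt3b (321.9), Dnmt3l (250.9), Uhrf1 (178.9), Tet1 (94.0), Dnmt1 (88.8), Dnmt3a (85.4), Tdg (30.2), Uhrf2 (19.3), Tet2 (14.8) and Tet3 (2.72). Here the ranges of Dnmt1 and Dnmt3a overlapped. Dnmt3b thus went from the fifth place to the first, and from above 83.9% of tested genes to above 98.8% of them. Tet2 went from the sixth place to the ninth.

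The order depends on the length used, since no transcript-level counts were analysed here. With the union of exons as length, Dnmt3b was still first at 48 h (272.3 CPM per kb), but Dnmt3l (153.0) and Uhrf1 (150.7) then overlapped. Tdg and Dnmt3a changed places at 24 h, as did Tet2 and Uhrf2 at 48 h. Of the summed level of the 3 methyltransferases, Dnmt1 held 61.0% ± 1.87 (SD, n = 3) at 24 h and 17.9% ± 0.48 at 48 h, and Dnmt3b 23.4% ± 0.96 and 64.9% ± 0.24. Dnmt3a held 15.6% ± 0.93 and 17.2% ± 0.32, so its share stayed low while its level rose. The share depends on the length, and a length for the short form of Dnmt3a was not tried. The summed level of the 3 methyltransferases was 135.5 ± 4.77 CPM per kb at 24 h and 496.1 ± 3.73 at 48 h. Set against the summed Tet level, the de novo enzymes stood at 0.524 ± 0.043 at 24 h and 3.65 ± 0.025 at 48 h, a 6.99-fold rise of the ratio without overlap (exact permutation p = 0.1).

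The genes whose profile was most like that of Dnmt3b and Tet2 were sought among 10427 genes (mean level 5 CPM or more). Likeness was the root mean square difference of centred log2 CPM over the 6 libraries. Because the libraries of each time lay close together, likeness mostly measures how near the fold changes are. Nearest to Dnmt3b were Pim2 (0.083), Gadd45g (0.121) and Lef1 (0.123), with log2 fold changes of 3.37, 3.51 and 3.13. Gadd45g was at 2.465 CPM at 24 h and 27.96 CPM at 48 h, so it passed the limit on the mean level through its 48 h values. Nearest to Tet2 were Acvr1b (0.016), C2cd5 (0.018) and Fig4 (0.023), with log2 fold changes of -0.95, -0.94 and -0.94.

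The surroundings of the 10 genes were described with 6 lists of 89 genes, of which 87 were tested and 67 called. These lists too were chosen with earlier results of these data known. The share of 62.8% called among all tested genes is the background for each list. Of 18 genes that target or regulate DNA methylation, 13 were called higher and 5 lower, and the median change was 0.23 (log2) against -0.01 for all genes. Hells, a remodeller that opens chromatin for the methyltransferases, rose from 493.7 ± 10.1 to 877.4 ± 6.47 CPM (SD, n = 3), which is 0.83 ± 0.02 in log2 (adjusted p = 4.8e-16). Its partner Cdca7 rose by 0.36. Prdm14, which represses Dnmt3b in naive cells, fell from 33.8 ± 1.27 to 5.84 ± 0.81 CPM, by -2.53 in log2 (adjusted p = 1.04e-13). Zfp57, which keeps methylation at imprinted loci, fell from 484.7 ± 9.93 to 314.2 ± 0.92 CPM (-0.63), and Zbtb24 fell by 0.61. Dppa3, which keeps Uhrf1 from its sites, was at 2.40 ± 0.47 and 3.68 ± 0.27 CPM (0.63, adjusted p = 0.00366), with fractional counts in some libraries. Ehmt1 and the Cdca7 relative Cdca7l rose by 0.51 and 0.50. Ehmt2 lost its call with library size only (0.02, adjusted p = 0.542) and in 4 of the 6 fits that left out a library.

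Of 15 genes of base excision repair and its helpers, all tested, 6 rose, 7 fell and 2 did not pass, with a median of -0.17. The Gadd45 genes, proposed helpers of demethylation, moved apart. Gadd45g rose from 2.46 ± 0.34 to 28.0 ± 1.79 CPM (SD, n = 3), by 3.51 in log2 (adjusted p = 2.17e-14) and Gadd45a from 27.6 ± 0.52 to 56.6 ± 2.12 CPM (1.04). Gadd45b fell from 5.49 ± 0.60 to 1.08 ± 0.39 CPM (-2.35, adjusted p = 2.84e-08). The glycosylases Neil2, Smug1 and Neil1, which can act beside Tdg, fell by 0.61, 0.58 and 0.55. The glycosylases did not move together, since Ung rose by 0.14 (adjusted p = 0.000777) and Neil3 was at -0.17 without a call (adjusted p = 0.0743). Mbd4, which like Tdg acts on mismatched thymine, fell by 0.22. Parp1, the most abundant of the list, fell from 873.8 ± 12.3 to 672.4 ± 3.49 CPM (-0.38), while the ligase Lig3 rose by 0.41.

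Of 13 readers of CpG or methyl-CpG, 5 rose, 3 fell and 5 did not pass, with a median of -0.02. The methyl-CpG binders Mbd1 and Mbd2 had log2 fold changes of -0.02 and -0.05 (adjusted p = 0.896 and 0.536). Kdm2b, which binds unmethylated CpG, rose from 213.4 ± 3.97 to 340.0 ± 10.1 CPM (SD, n = 3; 0.67, adjusted p = 3.52e-13). Cxxc4, once part of an ancestral Tet2 gene, was near its floor at 0.594 ± 0.28 and 1.38 ± 0.14 CPM (1.19, adjusted p = 0.00419). Zbtb33 rose by 0.34, and Zbtb4, Cxxc5 and Zbtb38 fell by 0.81, 0.54 and 0.40.

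Of 14 genes linked to the methyl donor or the Tet cofactor, not all of them suppliers, 13 were tested, 6 rose, 3 fell and 4 did not pass. Their median was -0.02. Mat2a, which makes S-adenosylmethionine, the methyl donor, rose from 536.4 ± 10.5 to 733.5 ± 9.59 CPM (SD, n = 3; 0.45, adjusted p = 1.63e-12). Ahcyl1 rose by 0.22, while Ahcy was at -0.14 without a call (adjusted p = 0.214). Idh2 and Idh1, which make the Tet cosubstrate oxoglutarate, fell by 0.58 and 0.26, while Idh3a, a subunit of the third such enzyme, rose by 0.13 (adjusted p = 0.000744). Slc23a2, a vitamin C transporter, fell by 0.20.

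Of 14 germline genes known to be silenced by promoter methylation, 13 were tested, 6 rose, 1 fell and 6 did not pass, with a median of 0.20. Tdrd1, Mael and Hormad1 rose by 0.98, 0.96 and 0.79, the last from 17.2 ± 0.33 to 29.7 ± 0.89 CPM (SD, n = 3; adjusted p = 2.06e-09) with fractional counts in all 6 libraries. Tdrd1 was near its floor, at 1.045 ± 0.289 CPM at 24 h and 2.07 ± 0.388 CPM at 48 h. Dazl fell from 23.2 ± 1.31 to 18.6 ± 0.24 CPM (-0.32, adjusted p = 0.000254). The count of 7 called genes was 4 without replicate 1 of 48 h. Of the 13 germline genes, 3 were called higher and 2 lower with library size only, and DESeq2 called 4 higher and 1 lower. Of 15 S phase genes, 12 rose and 3 did not pass, with a median of 0.13, and no gene changed 2-fold. Ccne1, Ccne2 and Gins2 rose by 0.60, 0.45 and 0.24, while Pcna, the clamp that binds Dnmt1 at the fork and a member of the targeting list, rose by 0.16. With library size only, 8 of the 15 were called higher and 2 lower. Those 2, the helicase subunits Mcm3 and Mcm5, were at -0.01 each with TMM and at -0.07 each with library size only, so their calls changed and their sign did not. The part of the cell cycle in the values of Dnmt1 and Uhrf1 was not tested.

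**Figure D4:**
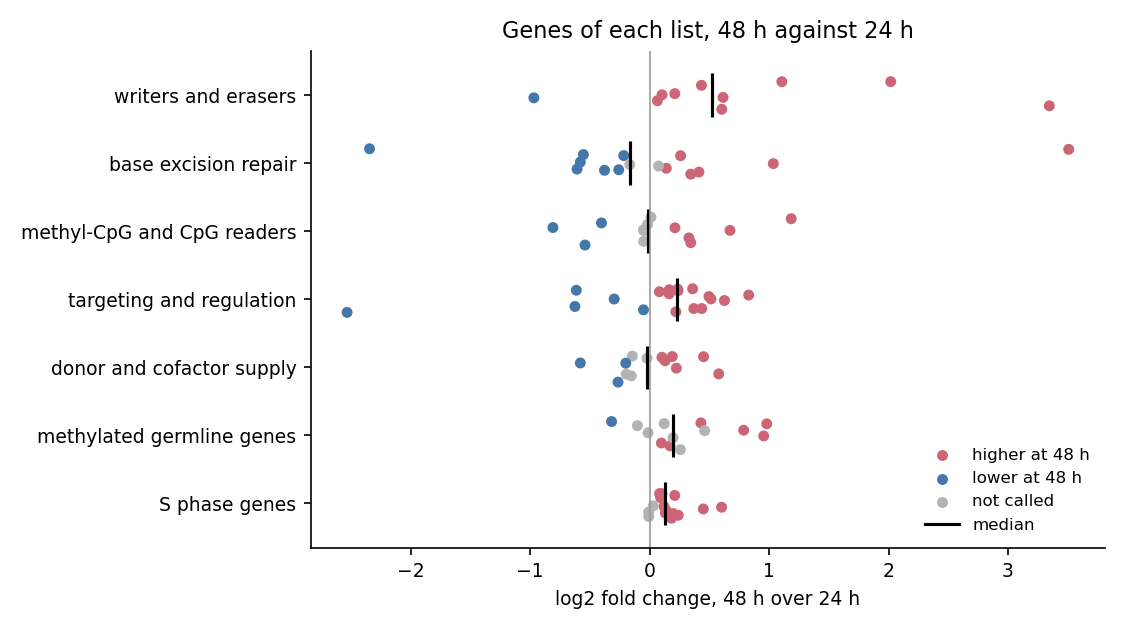
Log2 fold change (48 h over 24 h) of the tested genes of each list, 1 point per gene, coloured by its call at an adjusted p under 0.05, with a black bar at the list's median. The writers and erasers have a median of 0.52 with Dnmt3b at 3.35 and Tet2 at -0.97, and base excision repair holds genes far apart in both directions, from -2.35 (Gadd45b) to 3.51 (Gadd45g).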

How the data were processed

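The authors' deposited table holds RSEM estimated counts per gene, unscaled for depth or length. The submitters' processing notes name cutadapt 1.9.1, STAR 2.5.2, RSEM 1.3.0 and GRCm38; the annotation and use of strand are not given in the sources used here. All 6 columns matched 1 sample title each. Symbols, gene positions and lengths came from GENCODE M21 (GRCm38), whose names matched 51633 of 51912 identifiers. Counts were rounded, filtered with filterByExpr (minimum count 10), scaled by TMM and tested with edgeR 4.0.16 (quasi-likelihood test, group as the only term, R 4.3.3). The Benjamini-Hochberg adjustment ran over all 14889 tested genes. Standard errors are the log2 fold change divided by the root of F. Likeness used log2 CPM with a prior count of 2. Ratios within a library were compared by exact permutation (scipy 1.17.1). The edgeR step was tested on simulated data; a first pass limit, over all changed genes, was missed, mostly by genes of low counts, and was then replaced by a limit for genes at 5 CPM or more, so low genes can be missed. DESeq2 1.42.0 and limma 3.58.1 (voom) served as alternatives. All 10 members are named; of each list, the 3 largest called rises and falls and genes whose role is described, apart from some list genes that are not reported here. The members and lists were chosen with earlier results of these data known.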

Additional observations from a re-analysis of the deposited data

How the results depend on the processing

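Of 150 values of the 10 genes under 15 alternative fits, 148 kept direction and call and 2 lost the call, those of Dnmt1 (0.04) and Uhrf1 (0.00) with library size as the only scaling, which moves all genes down together. Dnmt3b ranged from 3.28 to 3.38, Dnmt3a from 1.94 to 2.06, Dnmt3l from 1.05 to 1.13 and Tet2 from -1.03 to -0.96. The count of called members was 10 in every other fit. DESeq2 called 7986 genes and edgeR 9345, and a threshold of 0.01 left 7810, all within 1.5 times. The germline list went from 7 called genes to 4 at a threshold of 0.01 and to between 4 and 6 when any 1 library was left out. With the union of exons as gene length, the log2 change of the de novo enzymes over Dnmt1 was 2.94 against 2.85, and over Dnmt3l 1.94 against 1.84, and Dnmt3a then held 11.7% of the methyltransferase level at 24 h in place of 15.6%. The share of calls that were higher was 39.9% with library size only and 49.2% with TMM.

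With the replicate block, 9235 genes and all 10 members were called and no member's call changed (Tet3 at 0.21, adjusted p = 0.00716). Deviations of libraries with the same number had correlations of -0.046, -0.043 and -0.009 over genes, which gives no pairing. Levels per kb depend on which transcripts were made, which counts per gene do not show. All 10 genes had enough counts to be tested, with Tet3 the lowest, while Nnmt and Tex101 had too few.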
